A study of Saccharomyces cerevisiae with 32 samples.

Results

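The comparison of a cold-sensitive ded1 mutant carrying high-copy DBP1 with its wild-type control asks which translation defects remain at 15 °C when a related helicase is supplied in excess. Its members are the 8 libraries of 2 budding yeast strains out of 32 libraries in the series. The strain with the mutant helicase, ded1-cs with hcDBP1 (NSY56), and the control strain, DED1-CS WT (NSY52), each gave 2 libraries of ribosome footprints and 2 of mRNA. Both strains were grown in SC medium, under selection where a plasmid had to be kept, to an OD600 of about 0.7, and the libraries are labelled 15 °C. Cycloheximide at 100 µg/ml was present for 2 min before harvest, and footprints were the RNA left after RNase I digestion. The length of the temperature shift, what the high-copy construct carries beside DBP1, and whether the control carries an empty vector are not given in the sources used here. A strain with the same mutation and without hcDBP1, ded1-cs (NSY54), was profiled in the same experiment against the same DED1-CS libraries, and its values are given only side by side.

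Ded1 is a DEAD-box RNA helicase of the cytoplasm that helps the initiating ribosome load on mRNA and scan to the start codon, above all on mRNAs with long or structured leaders. Dbp1 is its close relative in budding yeast and is known to support growth of ded1 mutants when it is overproduced. In ribosome profiling, footprints report the ribosomes on each reading frame, and the ratio of footprints to mRNA, the translational efficiency (TE), reports how many ribosomes an mRNA carries for its abundance.

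The table holds 5382 reading frames, of which 5089 had a mean level of 50 or more in both assays and were analysed. Just inside this minimum lay CTR3, with a lowest mean level of 50.2, and just outside lay ATG39, with 49.9. Both libraries of a strain and assay were pooled into 1 deposited value, so there is no spread between replicates, no difference was tested, and sequencing depth is unknown. Below, higher and lower mean a log2 change of at least 1 in size, that is 2-fold. The summed footprint level was 24505771 in DED1-CS and 32576396 in the hcDBP1 strain, while the summed mRNA level was 15132573 and 15033070. Scaling the columns to equal totals therefore shifts the TE of every gene by -0.42 (log2). For this reason each list median is given as its distance from the median over every analysed gene, which was 0.13 for TE, and shares of the summed level, which no scaling alters, are given beside them.

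DBP1 (YPL119C) was far above the control in both assays, and DED1 (YOR204W) was above 2-fold in footprints but not in mRNA. The deposited log2 level of DBP1 mRNA was 8.4 in DED1-CS and 14.3 in the hcDBP1 strain, and that of its footprints was 8.54 and 13.9. The authors' deposited table gives DBP1 a change of 5.85 in mRNA (57.9-fold), 5.41 in footprints (42.5-fold) and -0.45 in TE. DED1, the mutated helicase gene itself, had log2 footprint levels of 15.72 in DED1-CS and 17.9 in the hcDBP1 strain, and mRNA levels of 13.5 and 14.4. In the authors' deposited table this is 2.17 in footprints, 0.97 in mRNA and 1.2 in TE, beside a TE of 1.35 for DED1 in ded1-cs without hcDBP1. With columns scaled to equal totals the TE change of DED1 was 0.78, under 2-fold.

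Genes next to DBP1 and DED1 in the annotation were read as well. YPL119C-A, the small reading frame beside DBP1, stood at 5.20 in mRNA and 7.54 in footprints by the authors' deposited table. On the other side of DBP1, MRP51, a mitochondrial ribosomal protein gene, stood at 0.65 in mRNA and 0.80 in footprints by the authors' deposited table, under 2-fold. VPS30, beyond YPL119C-A, stood at 0.45 in mRNA and 1.40 in footprints per the authors' deposited table. HIS3, the histidine synthesis gene that neighbours DED1, had log2 footprint levels of 18.48 and 18.9 and mRNA levels of 17.6 and 17.5, close to each other in both strains.

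With hcDBP1 present, 669 of the 5089 genes were lower in TE than in DED1-CS (13.1%) and 477 were higher (9.37%). The TE changes had quartiles of -0.56 and 0.64, while those of mRNA had quartiles of -0.20 and 0.22. In footprints 560 genes were lower (11.0%) and 305 higher (5.99%), against 45 lower (0.884%) and 30 higher (0.590%) in mRNA. Of the 669 genes lower in TE, 478 were also lower by 2-fold in footprints and 0 were higher. Their median footprint change was -1.23 and their median mRNA change 0.19, with 515 of the 669 above 0 in mRNA. Since TE is the footprint change minus the mRNA change, an mRNA value above 0 is favoured by the choice of genes low in TE. With columns scaled to equal totals, 1234 genes were lower in TE and 95 higher, and with each assay centred on its median 824 were lower and 310 higher.

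**Figure D1:**
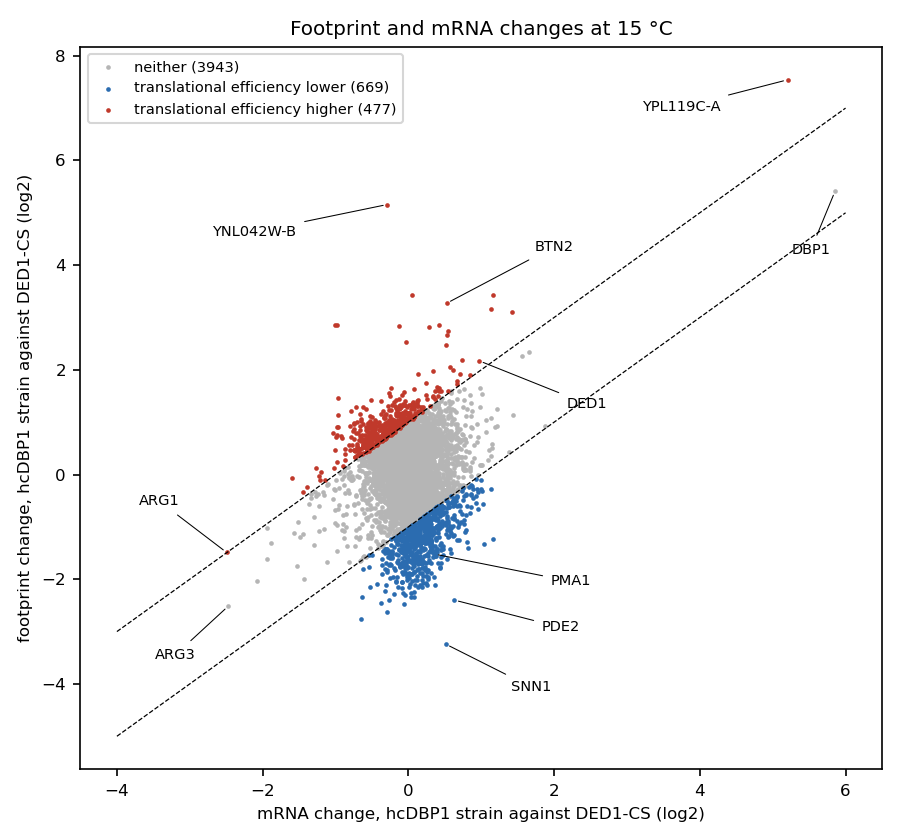
Each point is 1 of the 5089 analysed genes, placed by its log2 mRNA change (horizontal axis) and log2 footprint change (vertical axis) in the hcDBP1 strain against DED1-CS. Points outside the dashed lines differ by 2-fold or more in translational efficiency, 669 below and 477 above, and the cloud is wider in footprints than in mRNA.

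The P-type ATPases, pumps that move ions or flip lipids at the cost of ATP, had the lowest median of the 32 gene lists, at -1.15 relative to all genes. Of 13 analysed, 7 were lower in TE (53.8%) and 0 higher. PMA1, the plasma membrane proton pump, had log2 footprint levels of 17.26 in DED1-CS and 15.7 in the hcDBP1 strain, with mRNA at 15.9 and 16.2. In the authors' deposited table PMA1 thus stood at -1.87 in TE (3.67-fold), -1.52 in footprints and 0.36 in mRNA. PMR1, the Golgi calcium and manganese pump, stood at -2.33 in TE by the authors' deposited table, although its reading frame overlaps that of HUR1. Of the phospholipid flippase genes 4 were lower, NEO1 at -1.64, DNF2 at -1.59, DNF1 at -1.2 and DRS2 at -1.01 by the authors' deposited table, while DNF3 stood at -0.82. The sodium pump genes ENA1, ENA2 and ENA5 lay between 0.09 and 0.17 in TE by the authors' deposited table, the ER pump SPF1 at 0.02 and the copper pump CCC2, the highest of the list, at 0.95. The list held 0.840% of the summed footprint level in DED1-CS and 0.280% in the hcDBP1 strain, against 0.717% and 0.822% of the mRNA level, and 0.177% of footprints in ded1-cs without hcDBP1. PMA1 alone held 0.640% and 0.163% of footprints, and the rest of the list 0.200% and 0.117%.

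Other plasma membrane transporters stood low too. Of 52 analysed members, PMA1 included, 13 were lower in TE (25%) and 1 was higher, with a median of -0.78 relative to all genes. ZRT2, a zinc transporter, had log2 footprint levels of 11.17 and 9.0 with mRNA at 11.6 and 11.7, a TE change of -2.22 by the authors' deposited table. The copper transporter CTR1 stood at -1.88 and the inositol transporter ITR1 at -1.66 by the authors' deposited table. The higher member was TRK2, a potassium transporter, at 1.96 by the authors' deposited table, with log2 footprint levels of 6.09 in DED1-CS and 8.6 in the hcDBP1 strain. Scaled to equal totals, 27 transporters were lower and TRK2 alone was higher.

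Genes that build the glucan and chitin of the cell wall, and those of the signalling pathway that guards it, stood nearly as low. Of 23 analysed, 9 were lower in TE (39.1%), 1 was higher, and the median was -1.01 relative to all genes. FKS1, a catalytic subunit of glucan synthase, had log2 footprint levels of 15.78 in DED1-CS and 13.7 in the hcDBP1 strain, with mRNA at 14.6 and 14.9. The authors' deposited table has FKS1 at -2.32 in TE, KRE6, needed for beta-glucan synthesis, at -2.29, the wall stress sensor SLG1 at -2.01 and the chitin synthase CHS2 at -1.62. WSC4, of the same family as SLG1, was the higher one, at 1.12 by the authors' deposited table and under 2-fold with columns scaled to equal totals. This list held 0.419% of the footprint level in DED1-CS and 0.130% in the hcDBP1 strain, and 0.501% and 0.623% of the mRNA level. FKS1 alone held 0.230% and 0.0409% of footprints, and the rest of the list 0.190% and 0.0892%.

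The mannoproteins that coat the same wall showed a different pattern. None of 31 analysed was lower in TE and 5 were higher (16.1%), with a median of 0.44 relative to all genes. DAN4 and TIR4, wall proteins known from anaerobic growth, stood at 2.43 and 2.19 in TE by the authors' deposited table, the flocculin FLO11 at 1.64 and the wall protein SED1 at 1.09. Scaled to equal totals, 3 mannoprotein genes were higher and 3 lower. Their share of the footprint level was 3.68% in DED1-CS and 3.84% in the hcDBP1 strain.

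**Figure D2:**
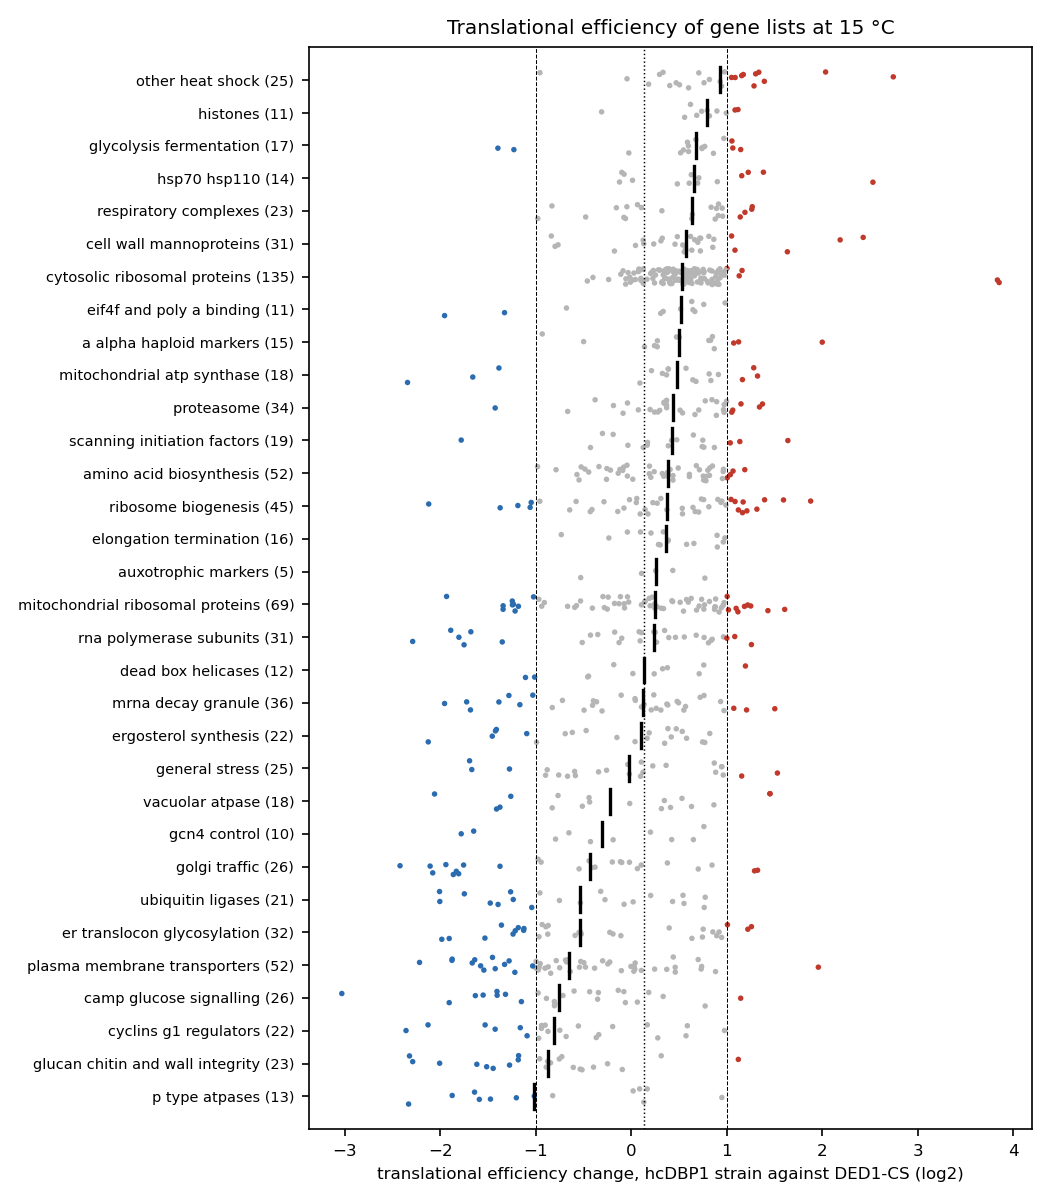
Each point is 1 gene, placed by its log2 change in translational efficiency in the hcDBP1 strain against DED1-CS, in the 32 gene lists with the number of analysed members in brackets. Black bars are list medians, the dotted line is the median of all analysed genes (0.13) and the dashed lines mark 2-fold; P-type ATPases lie lowest and heat shock genes outside the Hsp70 family highest.

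Along the secretory pathway, genes for entry into the ER and for glycosylation had 9 of 32 members lower in TE (28.1%) and 3 higher, with a median of -0.67 relative to all genes. SEC61, the channel subunit of the translocon, had log2 footprint levels of 13.29 and 11.7 with mRNA at 11.7 and 12. It stood at -1.91 in TE by the authors' deposited table, with its paralog SSH1 at -1.98 and the oligosaccharyltransferase subunit OST1 at -1.53. The accessory translocon subunits SEC72 and SEC66 were higher, at 1.26 and 1.22 by the authors' deposited table. Golgi traffic genes had 9 of 26 lower (34.6%) and 2 higher, with a median of -0.56 relative to all genes. GDA1, the Golgi guanosine diphosphatase, had log2 footprint levels of 12.27 and 9.9 with mRNA at 11.2 and 11.3. In the authors' deposited table the COPI coat subunits SEC21 and COP1 stood at -2.11 and -1.94, the Arf exchange factor GEA2 at -2.08 and SFT2, a Golgi membrane protein, at -1.75. SEC28, another COPI subunit, stood at 1.32 per the authors' deposited table, so subunits of the same coat lay on both sides of 2-fold. With columns scaled to equal totals, none of the 5 higher members of these 2 lists remained above 2-fold.

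Regulators of the cell cycle, of nutrient signalling and of protein turnover were low in TE. In that order their footprint medians were -0.54, -0.65 and -0.53 relative to all genes, and their mRNA medians 0.28, 0.22 and 0.02. In footprints 3 of 22, 6 of 26 and 6 of 21 were lower, against 11.0% of all genes, and 1, 1 and 0 higher. Among cyclins and their regulators, 6 of 22 were lower in TE (27.3%) and 0 higher, with medians relative to all genes of -0.94 in TE and 0.28 in mRNA, and 13 were lower with equal totals. CLB2, a mitotic cyclin, had log2 footprint levels of 10.04 and 8.2 with mRNA at 10.7 and 11.0. The authors' deposited table gives CLB1, its paralog, -2.36, CLB2 -2.13, the transcription factors SWI5 and SWI4 -1.53 and -1.42, and the G1 cyclin CLN3 -0.97, under 2-fold. In cAMP and glucose signalling, 8 of 26 were lower (30.8%) and 1 higher, with a median of -0.89 relative to all genes, and 15 were lower with equal totals. PDE2, the high-affinity cAMP phosphodiesterase, had log2 footprint levels of 11.6 and 9.2 while its mRNA stood at 11.9 and 12.5, which is 8.17-fold lower in TE by the authors' deposited table. TPK2 and TPK3, catalytic subunits of protein kinase A, stood at -1.91 and -1.55 by the authors' deposited table, and the repressor MIG1 at -1.63. The higher member was the hexokinase HXK2, at 1.15 by the authors' deposited table, and under 2-fold with equal totals. Among ubiquitin ligases and their partners, 8 of 21 were lower (38.1%), or 10 with equal totals, and 0 higher, with SAN1 at -2.01, RSP5 at -2.0 and HRD1 at -1.75 by the authors' deposited table.

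In several complexes subunits lay on both sides of 2-fold, at shares not far from the 13.1% lower and 9.37% higher of all genes. In the mitochondrial ATP synthase list 3 of 18 were lower and 3 higher (16.7% each), and ATP2, ATP1 and ATP5 stood at -2.34, -1.66 and -1.38 in TE by the authors' deposited table. These encode the beta and alpha subunits of the catalytic head and a stalk subunit. The same list had 3 members above 2-fold, ATP18, TIM11 and ATP19, at 1.32, 1.28 and 1.17 by the authors' deposited table, which encode accessory membrane subunits. ATP2 footprints had log2 levels of 14.48 and 11.8, with mRNA at 13.8 and 13.5. In the vacuolar proton ATPase, 4 of 18 were lower (22.2%) and 2 higher (11.1%). The lower ones were both forms of the largest membrane subunit, STV1 and VPH1, at -2.06 and -1.41, and VMA1 and VMA5 of the peripheral sector at -1.37 and -1.26 by the authors' deposited table. VPH1 had footprints at -0.28 and mRNA at 1.13 by the authors' deposited table, so its low TE went with more mRNA and little difference in footprints. VMA22, an assembly factor, and VMA10, a stalk subunit, stood at 1.46 and 1.45 by the authors' deposited table. Among subunits of RNA polymerases, 6 of 31 were lower (19.4%) and 3 higher (9.68%). RPB7 and the largest subunits of polymerases I and III, RPA190 and RPO31, stood at -2.29, -1.89 and -1.80 by the authors' deposited table, and the shared small subunit RPB10 at 1.26. Under equal totals the ATP synthase and RNA polymerase lists had 0 higher members, while VMA22 and VMA10 stayed above 2-fold.

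Of mitochondrial ribosomal protein genes 9 of 69 were lower in TE and 9 higher (13.0% each), the former near the 13.1% of all genes. With equal totals 14 were lower and 2 higher, and in footprints 11 were lower and 0 higher. RML2 stood lowest at -1.93 and MRP2 highest at 1.61 by the authors' deposited table. Respiratory complex genes had 0 of 23 lower and 4 higher, among them CYC1, cytochrome c, at 1.27 and QCR7 of complex III at 1.26 by the authors' deposited table. With equal totals 0 of these 23 were higher and 2 lower.

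Genes of ribosome assembly, protein breakdown and sterol synthesis spread around the control in their own ways. In ribosome biogenesis 10 of 45 were higher in TE (22.2%) and 5 lower, which became 2 higher and 7 lower with equal totals. NOP16 and RRP36, nucleolar assembly factors, stood at 1.88 and 1.6 per the authors' deposited table, with mRNA at -0.98 and -0.62. UTP22 of the small subunit processome stood at -2.12 per the authors' deposited table. Among proteasome genes 5 of 34 were higher (14.7%), and none with equal totals. The lower member was RPN4, the transcription factor that drives proteasome genes, at -1.42 in TE and 0.04 in mRNA per the authors' deposited table. Ergosterol genes had 5 of 22 lower (22.7%) and 0 higher. These include both genes for HMG-CoA reductase, the rate-limiting enzyme of the pathway, HMG2 at -2.12 and HMG1 at -1.45 per the authors' deposited table, with ERG24 at -1.42 and ERG11 at -1.41. Markers of mating type had 3 of 15 higher and 0 lower, led by STE18, a pheromone-signalling G protein subunit, at 2.0 per the authors' deposited table, and 1 higher and 1 lower with equal totals.

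Within the translation machinery, the cap-binding and poly(A)-binding group had 2 of 11 lower in TE (18.2%) and 0 higher. Of all genes 13.1% were lower, and the group median was 0.38 relative to all genes. PAB1, the poly(A) binding protein, had log2 footprint levels of 14.81 and 13.4 with mRNA at 13.4 and 13.3, and a TE change of -1.33 by the authors' deposited table. PBP1, which binds Pab1, stood at -1.95 by the authors' deposited table. The eIF4G genes TIF4631 and TIF4632 stood at 0.34 and -0.68 by the authors' deposited table, and the cap-binding protein gene CDC33 at 0.64. Among 19 factors of start codon scanning and other steps of initiation, 3 were higher (15.8%) and 1 lower (5.26%). Of all genes 9.37% were higher and 13.1% lower. The higher members were TIF11 (eIF1A), SUI1 (eIF1) and FUN12 (eIF5B). They stood at 1.64, 1.14 and 1.04 by the authors' deposited table, while only TIF11 stayed above 2-fold with equal totals. The lower member was GCD7, the beta subunit of the exchange factor eIF2B, at -1.78 by the authors' deposited table. None of 16 elongation and termination factor genes was lower or higher in TE. Their share of the footprint level was 7.66% in DED1-CS and 9.996% in the hcDBP1 strain, with 6.16% and 6.59% of mRNA. The level deposited for TEF2 was 2.56% and 3.96% of footprints, and the rest of the list held 5.09% and 6.03%. Gene copies were looked for only among ribosomal protein genes, so whether these reads belong to TEF2 alone was not checked. Among other DEAD-box helicase genes, SUB2, of mRNA splicing and export, and DHH1, a decapping activator, were lower, at -1.11 and -1.01 by the authors' deposited table. They were the 2 lower of 12 helicase genes analysed (16.7%). XRN1, the cytoplasmic exonuclease that ends mRNA decay, stood at -1.72 and DCP1, a decapping subunit, at 1.51 by the authors' deposited table. Their list had 7 of 36 lower (19.4%) and 3 higher (8.33%), against 13.1% and 9.37% of all genes. Its median was -0.01 relative to all genes.

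Of 135 cytosolic ribosomal protein genes analysed, 5 were higher in TE (3.70%) and 0 lower, against 9.37% and 13.1% of all genes. The list median was 0.39 relative to all genes, and the TE changes ranged from -0.46 to 3.85. In footprints 15 were higher (11.1%) against 5.99% of all genes, and 0 lower. The highest were RPL41A and RPL41B, at 3.85 and 3.84 in TE by the authors' deposited table, whose log2 footprint levels of 11.8 and 14.6 were the same for both genes. These are near-identical copies, so their reads cannot be assigned to either with certainty. Beyond these, RPL39 and RPS30A stood at 1.16 and 1.13 by the authors' deposited table, and with equal totals RPL41A and RPL41B alone were higher. The list held 15.4% of the footprint level in DED1-CS and 17.4% in the hcDBP1 strain, against 17.3% and 18.3% of the mRNA level.

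More heat shock genes than the 9.37% of all genes were higher in TE at the deposited scale. In the Hsp70 and Hsp110 family 4 of 14 were higher (28.6%) and 0 lower, and among other heat shock genes 10 of 25 were higher (40.0%) and 0 lower. Their medians relative to all genes were 0.53 and 0.80 in TE, and 0.04 and -0.02 in mRNA. In mRNA 1 of the other heat shock genes was higher, HSP30 at 1.13 by the authors' deposited table, and 1 lower. BTN2, a sorting factor for misfolded proteins, had log2 footprint levels of 8 in DED1-CS and 11.3 in the hcDBP1 strain, with mRNA at 8.1 and 8.6. The authors' deposited table gives BTN2 2.75 in TE, the membrane heat shock protein HSP30 2.04, the co-chaperone CPR6 1.40 and the mitochondrial disaggregase HSP78 1.34. SSA3 and SSA4, inducible Hsp70 genes, stood at 2.53 and 1.39 by the authors' deposited table. In ded1-cs without hcDBP1 the authors' deposited table has SSA3 at 3.43, BTN2 at 2.91, HSP30 at 2.71, SSA4 at 1.96, CPR6 at 1.46 and HSP78 at 1.23. The calls depended on scaling, since equal totals left 1 Hsp70 gene and 2 other heat shock genes above 2-fold, with 1 of the latter list lower. The family share of the footprint level was 2.66% in DED1-CS, 2.90% in the hcDBP1 strain and 3.54% in ded1-cs for Hsp70 and Hsp110 genes. For the other heat shock genes it was 0.747%, 0.837% and 1.31% in the same order.

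**Figure D3:**
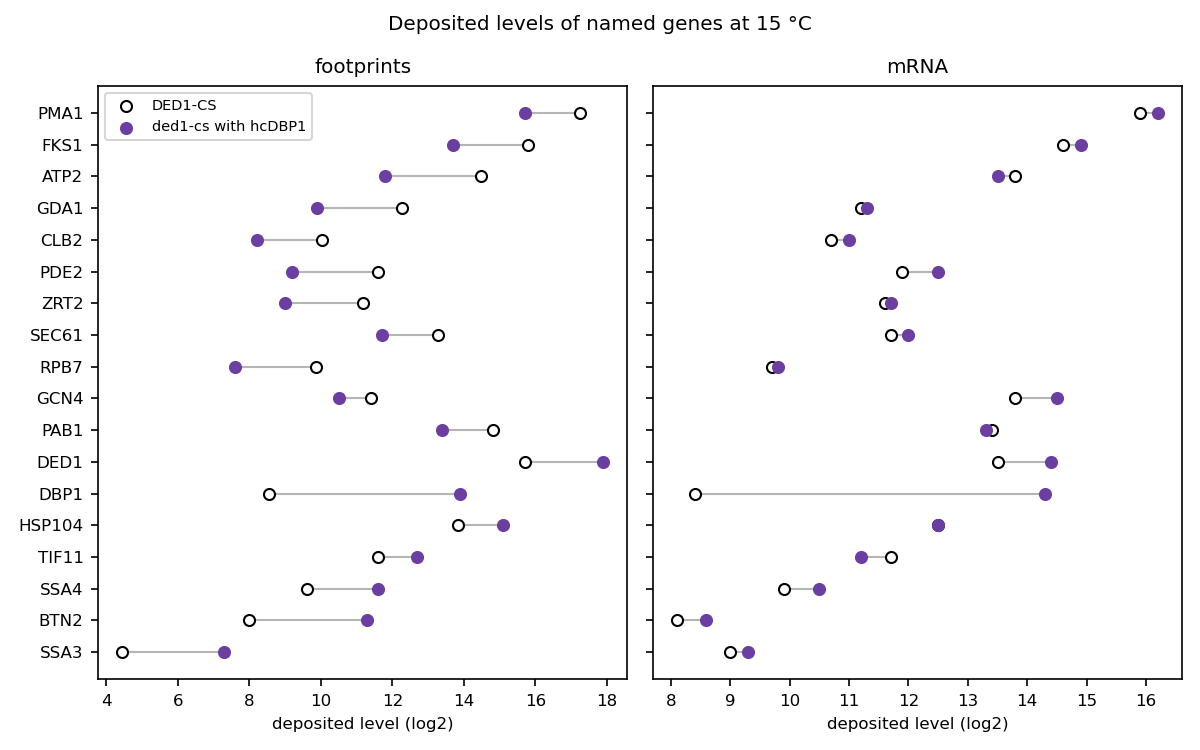
Deposited log2 levels of 18 named genes in DED1-CS (open circles) and ded1-cs with hcDBP1 (filled circles), for footprints on the left and mRNA on the right; each point is the authors' pooled value. PMA1 to PAB1 lie farther left in the hcDBP1 strain in footprints with smaller shifts in mRNA, DED1 to SSA3 lie farther right in footprints, and DBP1 far right in both.

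Glycolytic and fermentation genes took a larger part of the footprints in the hcDBP1 strain. Their share of the summed footprint level was 15.9% in DED1-CS, 20.7% in the hcDBP1 strain and 24.3% in ded1-cs, with 8.72% and 8.97% of mRNA in the 2 compared strains. In TE 3 of 17 were higher (17.6%) and 2 lower. HXK2, the aldolase gene FBA1 and the alcohol dehydrogenase gene ADH1 stood at 1.15, 1.07 and 1.06 by the authors' deposited table. PFK1, the alpha subunit of phosphofructokinase, stood at -1.40, and PYK2, the minor pyruvate kinase, at -1.23 by the authors' deposited table. With equal totals 0 of the 17 were higher and the same number, 2, lower. Other lists whose footprint share was larger in the hcDBP1 strain include histones, with 0.372% and 0.496%, and DEAD-box helicases, with 0.820% and 1.30%. DED1 and DBP1 themselves are counted in the helicase list and were the 2 of its 12 members higher in footprints. The median footprint change of that list was -0.22 relative to all genes. Its share without DED1 and DBP1 was not taken, so the larger share does not describe the other helicase genes.

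**Figure D4:**
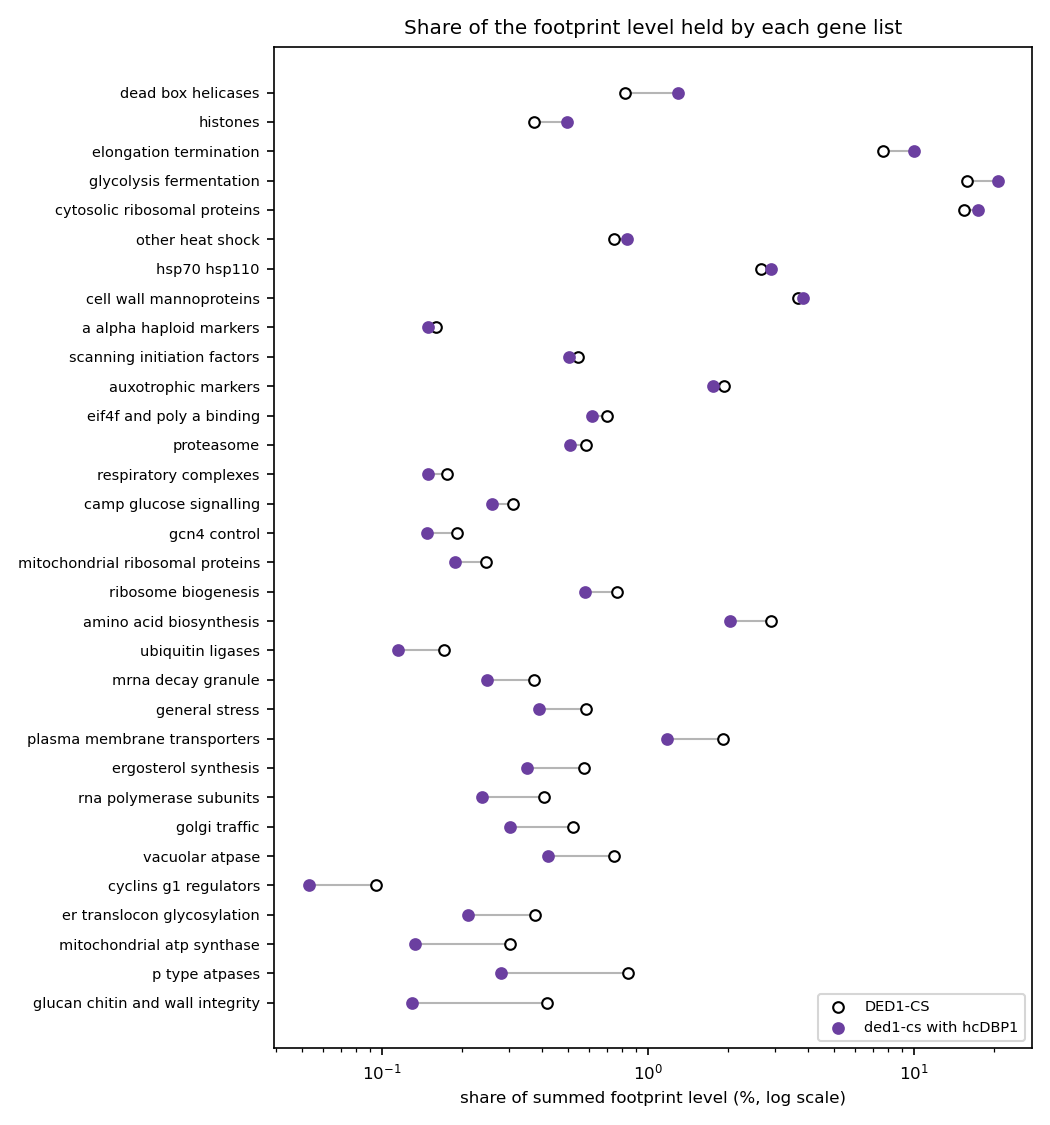
Share of the summed deposited footprint level held by each of the 32 gene lists (log scale) in DED1-CS (open circles) and in ded1-cs with hcDBP1 (filled circles), ordered by the ratio of the shares. Glucan and wall integrity genes went from 0.419% to 0.130% and P-type ATPases from 0.840% to 0.280%, while glycolysis went from 15.9% to 20.7%.

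GCN4, the transcription activator of amino acid synthesis genes whose own translation is held down by small upstream reading frames, was lower in TE. Its log2 mRNA level was 13.8 in DED1-CS and 14.5 in the hcDBP1 strain, and that of its footprints 11.4 and 10.5. In the authors' deposited table GCN4 stood at -1.65 in TE, -0.95 in footprints and 0.70 in mRNA, beside a TE of -2.4 in ded1-cs without hcDBP1. Many amino acid biosynthesis genes are known to be under Gcn4. Of 52 analysed, 6 were lower in mRNA, against 0.884% of all genes, and 0 were higher, with a median of -0.35 relative to all genes. ARG1, of arginine synthesis, had log2 mRNA levels of 13.3 and 10.8 and footprint levels of 14.39 and 12.9. In the authors' deposited table ARG1 and ARG3 stood at -2.49 and -2.47 in mRNA, the lowest of all analysed genes. Others, named here after their values were seen, include ARG4 at -1.36, HIS4 at -1.33 and SER3 at -1.0 by the authors' deposited table. The list held 2.33% of the mRNA level in DED1-CS and 1.73% in the hcDBP1 strain, and 2.90% and 2.05% of footprints. ARG1 and HIS4 stood at 1.01 and 0.97 in TE by the authors' deposited table, so their footprints were less far below the control than their mRNA. In TE 0 of 52 were lower and 4 higher, and with equal totals 2 were lower and 0 higher.

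General stress genes, HSP12 among them and also in the heat shock list, had 4 of 25 lower in mRNA and 0 higher, against 0.884% and 0.590% of all genes. TMA10, a ribosome-associated stress protein, and HSP12, a membrane-bound stress protein, stood at 1.53 and 1.16 in TE by the authors' deposited table, with mRNA at -1.60 and -1.39 and footprints at -0.07 and -0.24. Their higher TE thus went with less mRNA and not with more footprints. In TE 3 of 25 were lower (12%) and 2 higher (8%), near the 13.1% and 9.37% of all genes. The glycogen phosphorylase gene GPH1 stood at -1.69 and the glycogen synthase gene GSY1 at -1.67, while the other synthase gene GSY2, added after its value was seen, stood at -0.90 by the authors' deposited table.

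Outside these lists, the lowest TE of all belonged to SNN1, a gene of an endosomal complex, at -3.75 by the authors' deposited table. Its log2 footprint levels of 7.28 and 4 are low, and its mRNA stood at 7 and 7.5. PDE2 at -3.03 followed, then PAM1 at -2.47, GDA1 at -2.42, YML018C at -2.4, LAF1 at -2.39 and GAC1, a glycogen-related phosphatase regulator, at -2.38 by the authors' deposited table. For LAF1 the value combined footprints at -1.22 with mRNA at 1.17 by the authors' deposited table. SPC25, a kinetochore gene, stood at -2.35 with mRNA at 1.04 by the authors' deposited table, so that both its footprints, at -1.32, and its mRNA were part of the value. TNA1, the nicotinic acid permease, was among the lowest in footprints at -2.76 by the authors' deposited table. At the upper end, YNL042W-B stood at 5.45 in TE by the authors' deposited table, with log2 footprint levels of 12.82 and 18. Its reading frame overlaps a tRNA gene in the annotation, so its reads cannot be assigned with certainty. The mitochondrial SCEI, at 3.37 by the authors' deposited table, overlaps the large ribosomal RNA gene. In mRNA, the highest after DBP1 and YPL119C-A were RIM8, of pH signalling, at 1.88, the peroxisomal acyl-CoA oxidase POX1 at 1.65 and the transcription factor SMP1 at 1.56 by the authors' deposited table.

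The share of genes low in TE differed with mRNA abundance. When the 5089 genes were divided into 5 bins of near equal size by their DED1-CS mRNA level, 6.48% were lower in the bin with the least mRNA, then 9.92%, 14.6%, 21.2% and, in the most abundant bin, 13.6%. Genes higher in TE made up 17.3% of the bin with the least mRNA and 5.70% of the bin next to the most abundant. The median TE change was 0.38, -0.21 and 0.30 in the least abundant, next to most abundant and most abundant bins. The DED1-CS mRNA libraries enter both the ordering and the change, so these values are a description only.

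The ded1-ts strain with hcDBP1 at 37 °C, compared with DED1-TS, shares no library with the experiment at 15 °C, while its allele, temperature and experiment all differ from it together. Of 5078 genes analysed in both, 668 were lower in TE at 15 °C (13.2%) and 153 at 37 °C (3.01%), and 96 were lower in both. These are 14.4% of the genes lower at 15 °C and 62.7% of those lower at 37 °C. For higher TE the counts were 471 at 15 °C (9.28%), 39 at 37 °C (0.768%) and 19 in both, which is 4.03% and 48.7% of the lists. Genes lower at 15 °C had a median TE change of -0.42 at 37 °C, where all genes had 0.10. The difference between the experiments was not tested.

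By the sum of both changes, the lowest of the 96 shared genes were PSP1, PDE2, SBE22, SEC7, STV1 and PMR1. For PSP1 the authors' deposited tables give -2.28 at 15 °C and -2.0 at 37 °C, and for SEC7, the Golgi exchange factor, -1.86 and -2.03. STV1, the Golgi form of the proton ATPase subunit, stood at -2.06 and -1.74 and SBE22, of cell wall transport, at -2.21 and -1.73 by the authors' deposited tables. PDE2 stood at -3.03 and -1.05 by the authors' deposited tables. GCN4 was the only gene lower at 15 °C and higher at 37 °C by 2-fold, at -1.65 and 1.13 by the authors' deposited tables, and 0 genes were the reverse. DBP1 itself, overproduced in both strains, had a TE of -0.45 at 15 °C and -2.24 at 37 °C by the authors' deposited tables.

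**Figure D5:**
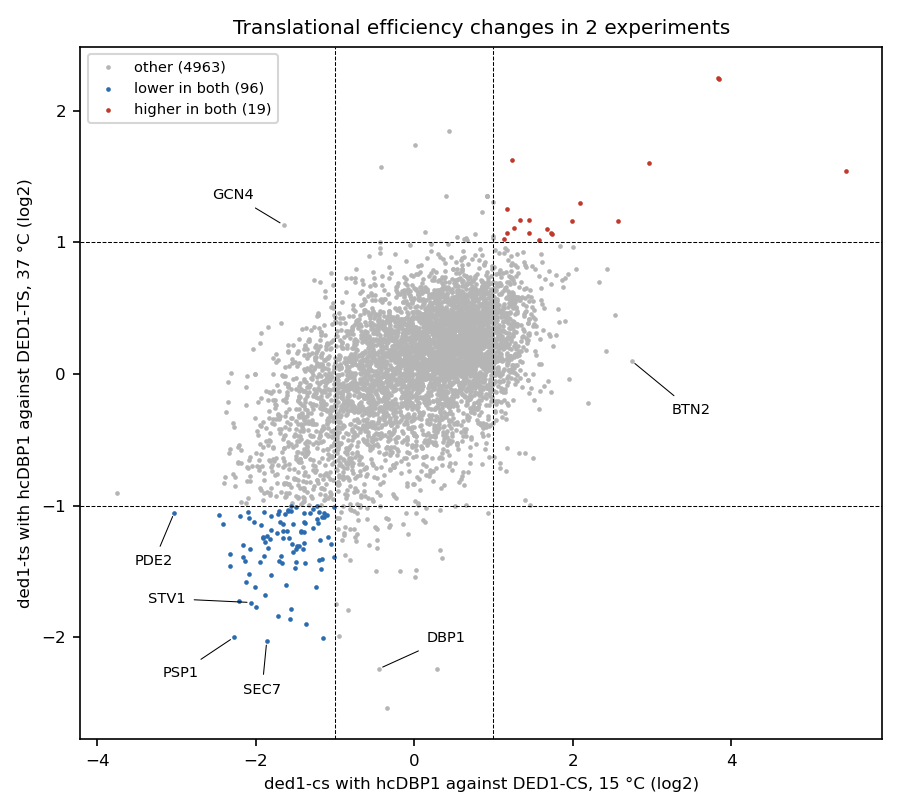
Each point is 1 of 5078 genes, placed by its log2 change in translational efficiency in ded1-cs with hcDBP1 at 15 °C (horizontal axis) and in ded1-ts with hcDBP1 at 37 °C (vertical axis), each against its own control. Dashed lines mark 2-fold; 96 genes lie below it and 19 above it in both experiments, the spread is wider at 15 °C, and GCN4 lies alone at the upper left.

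Set beside ded1-cs without hcDBP1, which was compared with the same DED1-CS libraries, the genes named here lay at a range of distances from the control. The authors' deposited tables give PDE2 a TE of -4.12 without hcDBP1 and -3.03 with it, RPB7 -3.86 and -2.29, PMA1 -2.81 and -1.87, and SEC61 -2.41 and -1.91. Values were closer for FKS1, at -2.45 and -2.32, KRE6, at -2.58 and -2.29, and SEC7, at -1.79 and -1.86 by the authors' deposited tables. GAC1 was farther from the control with hcDBP1, at -2.38 against -1.33 without it by the authors' deposited tables. MRP51, the neighbour of DBP1, stood at -1.54 without and 0.14 with hcDBP1 by the authors' deposited tables. No test of these differences was possible on pooled values. The comparisons with and without hcDBP1 were scaled separately. The shift to equal totals, -0.42 in TE with hcDBP1, was not taken for ded1-cs, so small differences between the comparisons can depend on scaling.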

How the data were processed

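The authors deposited normalized levels and changes on a log2 scale for each gene, 1 value for both libraries of a strain and assay, scaled table by table. The base is not stated, and the range of the levels points to 2. Per the submitters' processing notes, DESeq2, TopHat2 2.1.0, Bowtie2 2.6.0 and CASAVA 1.8 were among the tools and sacCer2 was the build, with no role or order given. The deposited TE change equals the footprint change minus the mRNA change within 1e-05. Rounded levels gave differences up to 0.0987 away from the deposited changes, so the latter were used. Symbols came from RefSeq R64 by locus tag (5380 of 5382 matched). That annotation is of another build and gave only names, neighbours and overlaps, so gene length was not used. With pooled values the planned test on counts could not be run, and depth is unknown. Genes with a mean linear level of 50 or more in both assays entered, and a log2 change of 1 or more in size was counted. Members, lists and the rule for named genes (the ends of each ranking, the largest changes in each of 32 lists, any member of lists of 14 or fewer, neighbours of DED1 and DBP1) were chosen with earlier results of these data known. Counting was checked on simulated data. Python 3.11.15, pandas 2.3.3 and numpy 2.4.6 were used.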

Additional observations from a re-analysis of the deposited data

How the results depend on the processing

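No paired analysis was possible because each deposited value pools both libraries of a strain and assay, and leaving out a replicate could not be run for the same reason. Leaving out genes by protein identity was not run; overlapping genes and ribosomal protein pairs were left out instead, chosen after seeing the data, as was a mean level taken over log2 levels. With columns scaled to equal totals, TE counts were 95 higher and 1234 lower, footprint counts 65 and 1044, and 234 genes were lower at both temperatures. Median centring gave 310 genes higher in TE, 187 higher in footprints and 145 lower at both temperatures. A 1.5-fold threshold gave 1431 higher and 1227 lower in TE, 1248 and 1055 in footprints, 230 and 209 in mRNA, and 363 lower at both temperatures. A 3-fold threshold gave 52 and 214 in TE, 43 and 165 in footprints, 4 and 7 in mRNA, and 9 lower at both. Without a level minimum 47 genes were higher in mRNA. All other counts stayed within 1.5 times their reported value. Of 227 named genes, 56 crossed 2-fold in TE with equal totals, 20 with centring and 7 with changes taken from the level columns. That 0 called values changed sign was fixed in advance, since these settings shift TE by too little to reverse a 2-fold change. Of 224 list medians relative to all genes, 221 stayed within 0.1. Those under equal totals and centring are counted among them, although both shift every gene alike and could not move a relative median. Rounded levels and the lack of values per library limit every difference here.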
